A study of Mus musculus with 6 samples.

Results

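The genes examined here make, recycle and spend glutathione, the main thiol antioxidant of animal cells, in mouse fat taken from under the skin (subcutaneous white adipose tissue). They are the 10 genes Gclc, Gclm, Gss, Gsr, Gpx1, Gpx3, Gpx4, Gsta3, Gsta4 and Gstm1, taken by exact name from a table of 36144 gene rows, and 10 of 10 names were found. The table holds 6 poly-A RNA libraries, 3 titled Tumor and 3 titled WT. By the genotype label the mice behind the libraries titled Tumor are full-body knockouts of Msra (methionine sulfoxide reductase A) and those behind the libraries titled WT are wild type. Every library, those titled WT included, carries the label of an orthotopic transplant, which the design text describes as pancreatic ductal adenocarcinoma cells, with fat taken 4 to 5 weeks later. The series title instead sets tumour-bearing mice beside controls without a tumour, so the sources disagree on what separates the groups, and they are named here by their titles. Age, sex and strain are not stated in the labels. The libraries are called biological replicates and nothing more, so p-values measure the spread between these libraries.

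Glutamate-cysteine ligase, made of the catalytic subunit Gclc and the modifier subunit Gclm, joins glutamate to cysteine, and glutathione synthetase (Gss) adds glycine. Peroxidases spend glutathione to reduce hydrogen peroxide and lipid peroxides, glutathione reductase (Gsr) restores the oxidised form with NADPH, and transferases attach glutathione to reactive compounds such as the aldehydes left by lipid peroxidation. Fat holds large lipid stores that can be peroxidised, and several of these genes are known targets of the transcription factor Nrf2 (Nfe2l2).

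The 3 peroxidases are selenoproteins, in which a TGA codon inside the coding sequence is read as selenocysteine, the residue that reacts with peroxide. That codon is shown because Gpx1, Gpx3 and Gpx4 share it. In the GENCODE M21 transcripts it is codon 47 of Gpx1, codon 73 of Gpx3 and codon 129 of the Gpx4 transcript used, whose coding sequences span 603, 678 and 759 bases. Each line runs 5′ to 3′ with the codon in capitals.
Gpx1: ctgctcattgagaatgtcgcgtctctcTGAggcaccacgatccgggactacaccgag
Gpx3: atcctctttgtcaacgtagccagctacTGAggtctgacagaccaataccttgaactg
Gpx4: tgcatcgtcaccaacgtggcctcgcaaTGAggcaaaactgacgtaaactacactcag

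The promoter table of RefSeq (GRCm38.p6, 250 bases before to 50 after a gene's start) held 11 entries for 7 of the 10 genes. They were searched on both strands for TGACNNNGC, the core of the antioxidant response element through which Nrf2 acts, and for TGAGTCA, a site of AP-1 factors. Read on the opposite strand, TGAGTCA can lie within a match of TGACNNNGC, so the searches can share bases. TGACNNNGC was in 2 of the 11 entries, those of Gsta3 and Gclm, against 12.4% of all 32851 entries. TGAGTCA was in 0 of 11, against 5.20% of all entries. The matches, in capitals, lie at -121 to -113 on the plus strand of the Gsta3 window and at -134 to -126 on the minus strand of the Gclm window, counted from the start. A match of letters is a description and not a binding site. The windows, on the plus strand, are chr1:21240335-21240634 for Gsta3 and chr3:122245307-122245606 for Gclm.
Gsta3: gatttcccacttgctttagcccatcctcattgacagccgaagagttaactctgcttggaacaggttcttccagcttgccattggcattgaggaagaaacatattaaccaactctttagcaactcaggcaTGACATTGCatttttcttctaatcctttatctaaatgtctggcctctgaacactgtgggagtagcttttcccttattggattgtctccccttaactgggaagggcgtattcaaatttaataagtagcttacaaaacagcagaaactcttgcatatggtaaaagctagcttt
Gclm: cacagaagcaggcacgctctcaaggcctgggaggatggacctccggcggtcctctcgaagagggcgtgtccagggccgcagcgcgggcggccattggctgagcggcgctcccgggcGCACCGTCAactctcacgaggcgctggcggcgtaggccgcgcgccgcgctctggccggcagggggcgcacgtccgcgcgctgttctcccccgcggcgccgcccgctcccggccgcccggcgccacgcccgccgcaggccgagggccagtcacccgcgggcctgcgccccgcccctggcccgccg

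Values are in TPM, a share of a library's transcripts corrected for transcript length, so levels can be set side by side between genes. Each deposited column sums to 1000000, the read depth is unknown, and 13077 to 14253 genes stood at 1 TPM or more per library. The values of Msra were 52.9, 39.99 and 26.9 TPM in the libraries titled Tumor and 51.1, 59.1 and 56.3 TPM in those titled WT, so its RNA was present where the genotype label says knockout; a value over the whole gene does not show whether an exon is missing. The 18 adipocyte markers summed to 14239 to 51306 TPM in the libraries titled Tumor and 34836 to 62298 TPM in those titled WT. The 12 B and plasma cell markers summed to 54.7, 2317 and 3495 TPM in Tumor replicates 1, 2 and 3, and to 1396, 1235 and 30.5 TPM in WT replicates 1, 2 and 3, with Mzb1 at 0 in at least 1 library. Tumor replicate 1 and WT replicate 3 were thus poor in lymphoid RNA. Skeletal muscle markers summed to 854 to 3317 TPM in the libraries titled Tumor and 30.3 to 4159 TPM in those titled WT. Fewer cells of a type and less RNA per cell cannot be told apart in bulk tissue.

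The alpha-class transferases Gsta3 and Gsta4 were lower in every library titled Tumor than in any titled WT, and the other 8 genes overlapped between the groups. With limma on log2(TPM + 1), 0 of 10 genes had an adjusted p below 0.05, as did 0 of the 14144 genes tested (0%), where the smallest adjusted p was 0.206. One member only, Gsta3, had an unadjusted p below 0.05, on the lower side. That threshold was passed by 5.45% of all genes, 3.75% higher and 1.7% lower. The groups did not overlap for 2 members, both lower, against 15% of all genes in either direction and 3.24% lower. Differences were positive for 4 members and negative for 6, against 76.8% and 23.2% of all genes. The median of the 10 was -0.11 on the log2 scale and that of all genes 0.23, and 2 members lay above the all-gene median and 8 below it. With median-ratio factors the all-gene median was 0.038, and 129 genes were higher and 522 lower at an unadjusted p below 0.05, against 530 higher and 241 lower without them. With upper-quartile factors the median was 0.056, with 157 genes higher and 441 lower.

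**Figure D1:**
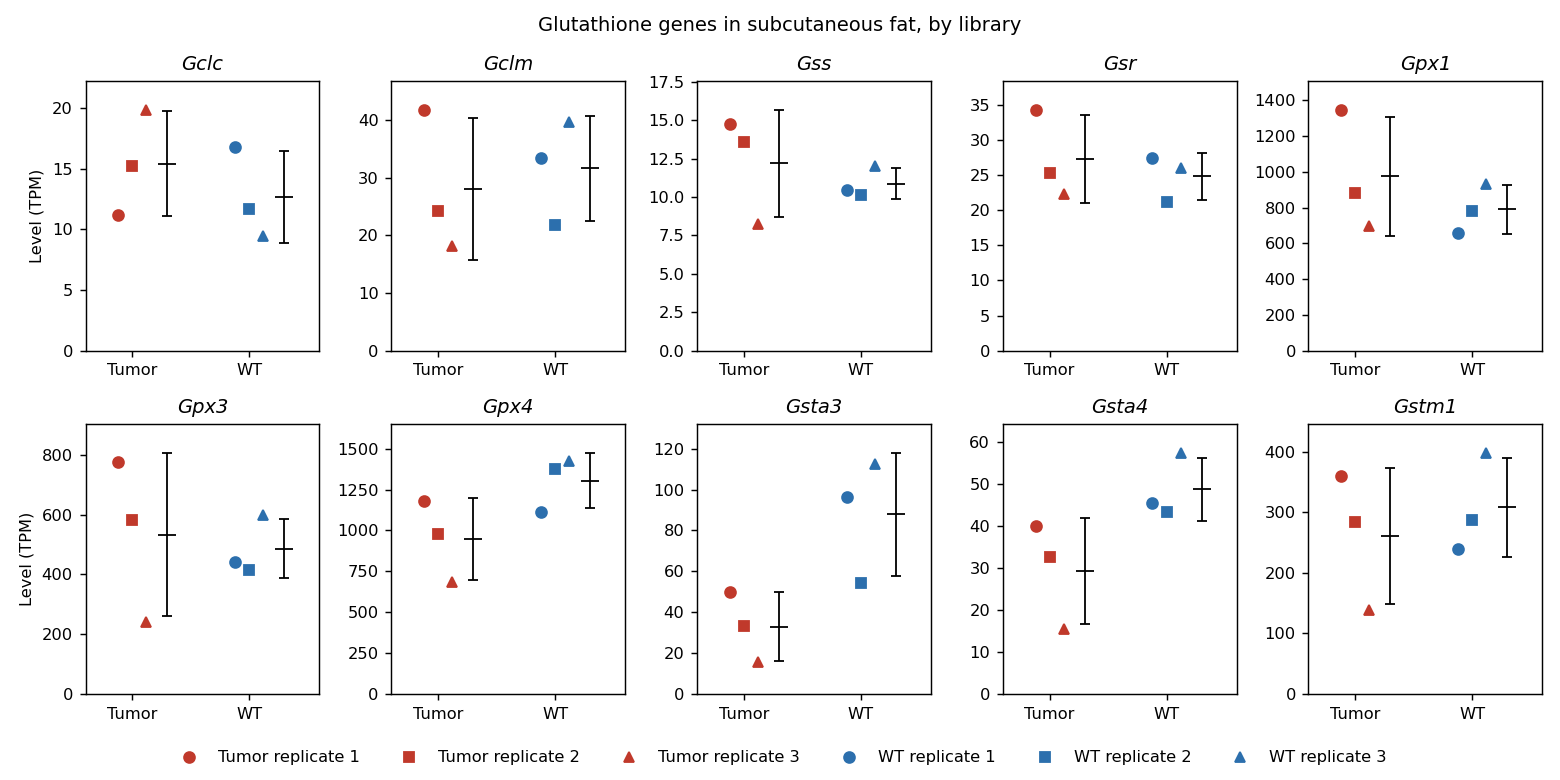
Level of each of the 10 genes in TPM (vertical axes, from 0) in the 3 libraries titled Tumor and the 3 titled WT. Symbols mark the replicate number, and the bar beside each group is its mean with the SD (n = 3). Gsta3 and Gsta4 are the 2 genes with all Tumor points below all WT points.

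The synthesis genes were among the least abundant members, and none passed the test. Gclc (chromosome 9, 77754535 to 77794485, GRCm38, GENCODE M21), the catalytic subunit, stood at 11.2, 15.2 and 19.9 TPM in the libraries titled Tumor and at 16.8, 11.7 and 9.501 TPM in those titled WT. The groups overlapped, and within each group the library poorest in B cell RNA held the least Gclc. Its log2 difference was 0.27 (95% interval -0.46 to 0.99, limma adjusted p = 0.804).

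Gclm (chromosome 3, 122245557 to 122270732), the modifier subunit, stood at 41.8, 24.1 and 18.1 TPM in the libraries titled Tumor and at 33.4, 21.8 and 39.6 TPM in those titled WT. Here the libraries poor in lymphoid RNA held the highest value of their group. Its log2 difference was -0.21 (95% interval -1.11 to 0.69, limma adjusted p = 0.860). The ratio of Gclc to Gclm, subunits of the same enzyme, was 0.268, 0.632 and 1.10 in the libraries titled Tumor and 0.505, 0.536 and 0.240 in those titled WT. These ratios overlapped (exact permutation p = 0.4, two-sided, n = 3 each), with the lowest of each group in the library poor in lymphoid RNA. The part of lymphoid RNA in these values was not tested.

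Gss (chromosome 2, 155563181 to 155592810), which completes glutathione, stood at 14.8, 13.6 and 8.22 TPM in the libraries titled Tumor and at 10.5, 10.1 and 12.04 TPM in those titled WT. Its groups overlapped, with Tumor replicate 3 the lowest of the 6 libraries. The log2 difference was 0.12 (95% interval -0.51 to 0.74, limma adjusted p = 0.888). Acss2, which makes acetyl-CoA from acetate, shares 395 of the 5915 exon bases of Gss on the opposite strand. It averaged 65.4 ± 13.8 TPM in the libraries titled Tumor and 197 ± 71.3 TPM in those titled WT (SD, n = 3 each). The library titles carry the words forward strand, but how strand was used in counting is not stated. Reads of the shared bases may therefore belong to either gene.

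Gsr (chromosome 8, 33652523 to 33698163), which recycles oxidised glutathione, stood at 34.3, 25.2 and 22.3 TPM in the libraries titled Tumor and at 27.5, 21.1 and 26.0 TPM in those titled WT. These were the most even values of the 10 genes, the highest library being 1.62 times the lowest. Between the groups the log2 difference was 0.11 (95% interval -0.42 to 0.64, limma adjusted p = 0.869). With median-ratio factors the log2 differences of Gss and Gsr were -0.085 and -0.10, so the sign of both turns with the scaling.

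The selenium peroxidases were the most abundant members. Gpx1 (chromosome 9, 108338903 to 108340343), which reduces hydrogen peroxide inside cells, stood at 1347, 882 and 696 TPM in the libraries titled Tumor and at 659.8, 779 and 934 TPM in those titled WT. The groups overlapped, with the highest value in Tumor replicate 1. Its log2 difference was 0.26 (95% interval -0.51 to 1.03, limma adjusted p = 0.814), close to the all-gene median, and it was 0.0006 without Tumor replicate 1.

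Gpx4 (chromosome 10, 80047166 to 80056439) reduces peroxides of membrane phospholipids and restrains ferroptosis, a form of cell death by lipid peroxidation. It stood at 1181, 976 and 684 TPM in the libraries titled Tumor and at 1114, 1375 and 1427 TPM in those titled WT. Tumor replicate 1 lay above WT replicate 1, and every other library titled Tumor lay below all those titled WT. The log2 difference was -0.49 (95% interval -1.18 to 0.20, limma adjusted p = 0.737), and 4.35% of all genes had a more negative one. Of the 50-base windows of Gpx4 transcripts, 34.7% also occur in the pseudogene Gpx4-ps2 or in AC122253.3, so its reads could be split. Gpx4-ps2 stood at 0.524 to 1.80 TPM in the libraries titled Tumor and 0.278 to 1.91 TPM in those titled WT.

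Gpx3 (chromosome 11, 54902453 to 54910377), the secreted peroxidase of plasma, stood at 777, 583 and 239 TPM in the libraries titled Tumor and at 443, 416 and 600.3 TPM in those titled WT. The libraries titled Tumor held both the highest and the lowest value. Its log2 difference was -0.0084 (95% interval -1.15 to 1.13, limma adjusted p = 0.996). It was 0.49 without Tumor replicate 3, the library with the lowest adipocyte sum, and -0.36 without Tumor replicate 1.

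The ratio of Gpx1 to Gpx4 within a library separated the groups. It was 1.14, 0.903 and 1.02 in the libraries titled Tumor and 0.592, 0.566 and 0.655 in those titled WT. The mean ratio was 1.02 ± 0.119 in the libraries titled Tumor and 0.605 ± 0.0456 in those titled WT (SD, n = 3 each). The mean log2 ratio was higher by 0.75 in the libraries titled Tumor (exact permutation p = 0.1, two-sided, the smallest that 3 against 3 libraries can give), and by 0.67 to 0.84 with any 1 library left out. Since the groups do not overlap, leaving out 1 library could not turn the sign. Of all pairs of tested genes, 9.63% had ratios that did not overlap between the groups. Such a ratio does not depend on the scaling of TPM and does not show which gene moved. The 12 macrophage markers summed to 2540 to 4493 TPM in the libraries titled Tumor and 1893 to 2251 TPM in those titled WT, and none was at 0 in any library. That separation rests on Lyz2: the other 11 summed to 2278, 1139 and 1037 TPM in the libraries titled Tumor and to 1017, 1055 and 1160 TPM in those titled WT, which overlap. Of the 12 markers 8 overlapped between the groups and 4 lay higher without overlap, where 11.8% of all genes did. Differences were positive for 10 markers and negative for Mrc1 and Cd163, against 76.8% and 23.2% of all genes. The part of these markers in the ratio was not tested.

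The alpha-class transferases had the most negative differences of the 10 genes. Gsta3 (chromosome 1, 21240589 to 21265661), known in mouse liver for conjugating the epoxide of aflatoxin, stood at 49.97, 33.2 and 15.8 TPM in the libraries titled Tumor and at 96.4, 54.5 and 113 TPM in those titled WT. Every library titled Tumor lay below every library titled WT, most narrowly Tumor replicate 1 below WT replicate 2. The means were 33.0 ± 17.1 TPM in the libraries titled Tumor and 87.8 ± 29.99 TPM in those titled WT (SD, n = 3 each). The log2 difference was -1.46 (SE 0.48, 95% interval -2.63 to -0.30, limma adjusted p = 0.737), and 0.354% of all genes had a more negative one.

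Gsta4 (chromosome 9, 78182774 to 78209349), which conjugates hydroxynonenal, an aldehyde left by lipid peroxidation, stood at 39.96, 32.5 and 15.4 TPM in the libraries titled Tumor and at 45.4, 43.3 and 57.3 TPM in those titled WT. The groups did not overlap here either. The log2 difference was -0.80 (95% interval -1.69 to 0.086, limma adjusted p = 0.737), and 1.70% of all genes had a more negative one.

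Gstm1 (chromosome 3, 108012255 to 108017973), a mu-class transferase, stood at 359, 285 and 139 TPM in the libraries titled Tumor and at 239, 288 and 398 TPM in those titled WT. Its groups overlapped, with the lowest value in Tumor replicate 3. Between the groups the log2 difference was -0.31 (95% interval -1.30 to 0.68, limma adjusted p = 0.824), and it was 0.085 without that library. Of its 50-base windows 18.9% also occur in Gstm2, Gstm3 or pseudogenes, so its reads could be shared with close copies.

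**Figure D2:**
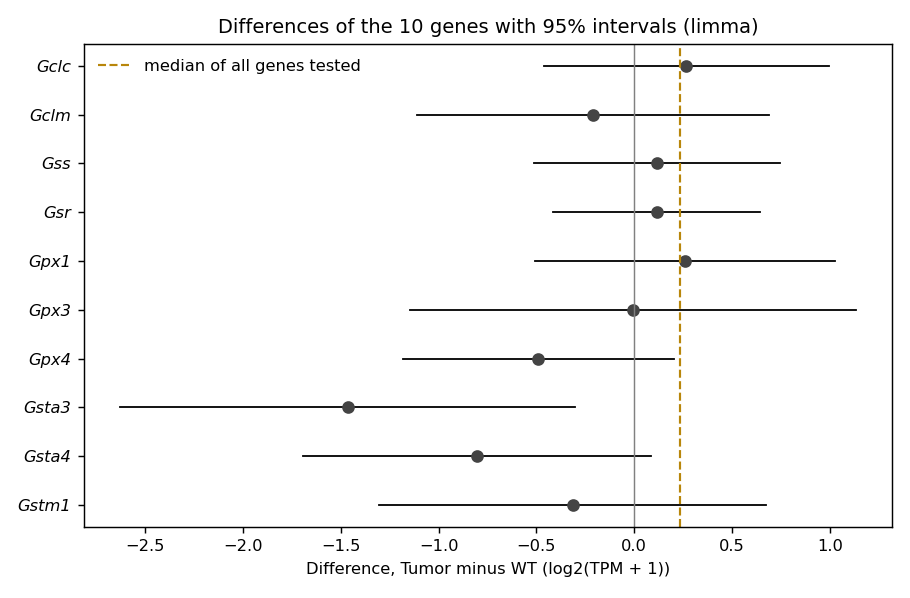
Log2 difference of each of the 10 genes, libraries titled Tumor minus those titled WT, on the log2(TPM + 1) scale (horizontal axis), with 95% intervals from limma. The dashed line is the median of all genes tested (0.23). The interval of Gsta3 lies below 0 before adjustment over all genes, and the other 9 intervals include 0.

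Ratios among the transferases separated the groups as well. Gsta4 to Gstm1 was 0.111, 0.114 and 0.111 in the libraries titled Tumor and 0.190, 0.151 and 0.144 in those titled WT, and the Tumor values were nearly equal to each other. Gsta3 to Gsta4 was 1.25, 1.02 and 1.02 in the libraries titled Tumor and 2.12, 1.26 and 1.97 in those titled WT, a narrow separation. Over the 45 pairs that the 10 genes form, 18 ratios (40%) did not overlap between the groups, against 9.63% of all pairs of tested genes. Of these pairs, 4 hold neither Gsta3 nor Gsta4, out of 28 such pairs; they are Gss to Gpx4, Gsr to Gpx4, Gpx1 to Gpx4 and Gpx1 to Gstm1. Pairs share genes and are not independent.

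**Figure D3:**
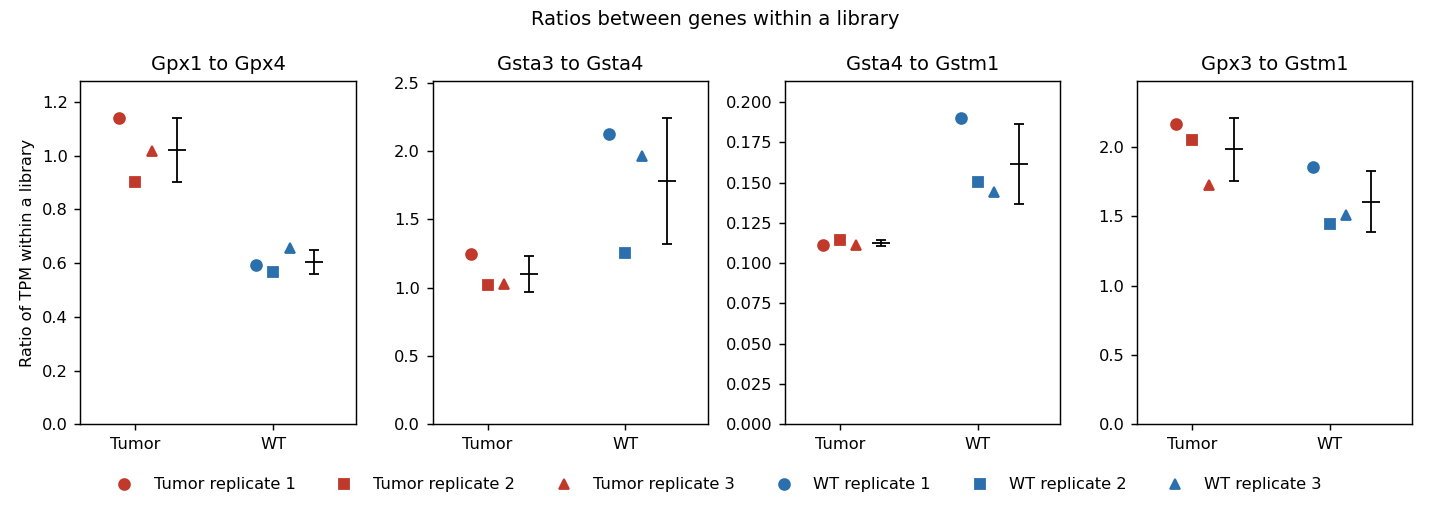
Ratio of the TPM of 2 genes within each library (vertical axes, from 0) for the 3 libraries titled Tumor and the 3 titled WT, with the mean and SD beside each group. Gpx1 to Gpx4, Gsta3 to Gsta4 and Gsta4 to Gstm1 do not overlap between the groups, and Gpx3 to Gstm1 does.

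By level the peroxidases came first. Mean levels over the 6 libraries were 1126 TPM for Gpx4, 883 TPM for Gpx1, 509.7 TPM for Gpx3, 284 TPM for Gstm1 and 60.4 TPM for Gsta3. The others averaged 39.0 TPM for Gsta4, 29.8 TPM for Gclm, 26.1 TPM for Gsr, 14.1 TPM for Gclc and 11.5 TPM for Gss. Neighbours in this order had overlapping ranges except Gstm1 over Gsta3 and Gsr over Gclc. Within libraries Gpx1 stood above Gpx3, Gpx3 above Gstm1 and Gsta3 above Gsta4 in 6 of 6, whereas Gpx4 exceeded Gpx1 in 4 of 6, the exceptions being Tumor replicates 1 and 3.

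Tumor replicate 3, with the lowest adipocyte sum, was the lowest of the 6 libraries for 7 of the 10 genes. Values were therefore also divided by the geometric mean of the adipocyte list in each library and scaled back to the average library. Gsta3 then stood at 34.7, 29.1 and 44.1 in the libraries titled Tumor and at 101, 56.9 and 60.2 in those titled WT, without overlap. Gsta4 stood at 27.8, 28.6 and 43.1 in the libraries titled Tumor and at 47.6, 45.3 and 30.6 in those titled WT and overlapped. Gpx3 stood at 540.4, 512 and 669 in the libraries titled Tumor and at 464, 435 and 321 in those titled WT, again without overlap, here on the higher side. On this scale 2 of the 10 genes did not overlap, 1 lower and 1 higher, against 9.76% of all genes, 9.31% higher and 0.445% lower. The log2 differences were -0.97 for Gsta3 and 0.50 for Gpx3 (limma adjusted p = 0.637 for both), and both lie below the all-gene median of 0.69 on this scale.

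**Figure D4:**
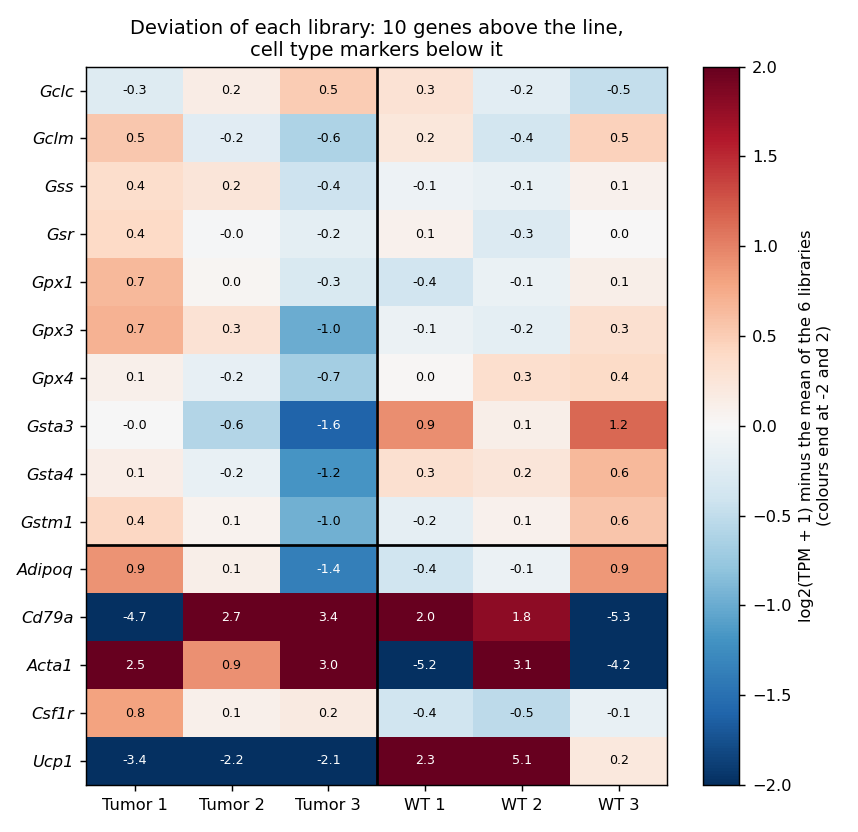
Each cell is log2(TPM + 1) in a library minus the mean over the 6 libraries, for the 10 genes (above the line) and for Adipoq (adipocytes), Cd79a (B cells), Acta1 (muscle), Csf1r (macrophages) and Ucp1 (thermogenic adipocytes), with colours ending at -2 and 2. Tumor replicate 3 is low for most of the 10 genes and for Adipoq, and high for Gclc. Csf1r was not the first detected macrophage marker. It lay higher without overlap, whereas 8 of the 12 macrophage markers overlapped between the groups.

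The division by lymphoid RNA crosses the groups, so values are given on each side of it. Among the 4 libraries rich in lymphoid RNA, 2 of each title, the log2 difference was -1.62 for Gsta3 (limma adjusted p = 0.506), -0.95 for Gsta4 (adjusted p = 0.564), -0.60 for Gpx4 (adjusted p = 0.566) and -0.40 for Gstm1 (adjusted p = 0.674). It was 0.29 for Gclc, 0.13 for Gpx1 and 0.039 for Gss, and -0.35 for Gclm, -0.20 for Gpx3 and -0.021 for Gsr. Between the 2 libraries poor in lymphoid RNA there is no test: Tumor replicate 1 over WT replicate 3 was 0.444 for Gsta3, 0.698 for Gsta4, 0.828 for Gpx4, 0.904 for Gstm1 and 1.44 for Gpx1. The same ratio was 1.32 for Gsr, 1.29 for Gpx3, 1.23 for Gss, 1.18 for Gclc and 1.05 for Gclm. The 8 thermogenic adipocyte markers summed to 252 to 401 TPM in the libraries titled Tumor and 868 to 2435 TPM in those titled WT, with Elovl3 at 0 in Tumor replicate 3. With the B and plasma cell markers as a covariate, the log2 difference was -1.33 for Gsta3 and -0.71 for Gsta4. The limma adjusted p was 0.279 for Gsta3 and 0.358 for Gsta4. How much of the Gsta3 and Gsta4 values comes with thermogenic adipocytes or with lymphoid RNA was not tested.

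Profiles nearest to that of Gsta3 over the 6 libraries were those of Pcx, Gpat3 and Dgat2, at root mean square differences of 0.22, 0.23 and 0.23 on the centred log2 scale. Pcx is pyruvate carboxylase, and Gpat3 and Dgat2 are acyltransferases of triglyceride synthesis. Nearest to Gsta4 were Dhrs7, Cpt2 and Tst (0.085, 0.089 and 0.090). Nearest to Gpx4 were 1700021F05Rik, Romo1 and Ndufs5 (0.043, 0.045 and 0.058), Ndufs5 being a subunit of respiratory complex I. The gene nearest to Gsr was Glo1, a glyoxalase that uses glutathione (0.034), and the gene nearest to Gclc was Prpf4, a splicing factor (0.023). Among the 10 genes, Gss and Gsr were nearest to each other (0.17).

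No gene of the wider pathway lists passed the test. Of 20 tested further transferases, 5 had a positive and 15 a negative difference, with a median of -0.11, where 23.2% of all genes had a negative one. The groups did not overlap for 3 of the 20, against 15% of all genes. Of these, 2 were lower and 1 higher, against 3.24% of all genes lower and 11.8% higher. Gstp2, a pi-class transferase with a close copy in Gstp1 that could share its reads, averaged 47.0 ± 11.2 TPM in the libraries titled Tumor and 83.5 ± 6.25 TPM in those titled WT (SD, n = 3 each), a log2 difference of -0.84 (limma adjusted p = 0.737). Hpgds, a transferase family member that makes prostaglandin D2, averaged 10.9 ± 2.63 TPM in the libraries titled Tumor and 4.98 ± 1.93 TPM in those titled WT, a difference of 1.02 (adjusted p = 0.737). Mgst2, a microsomal family member, averaged 42.4 ± 9.53 TPM in the libraries titled Tumor and 58.1 ± 6.50 TPM in those titled WT. Of the other peroxidases 2 were tested, Gpx8 at 96.7 ± 43.3 TPM in the libraries titled Tumor and 137 ± 31.7 TPM in those titled WT and Gpx7 at 22.1 ± 17.1 TPM in the libraries titled Tumor and 14.7 ± 7.78 TPM in those titled WT, both overlapping.

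The list drawn up for the supply of NADPH, the reductant that Gsr uses, held the most negative differences of these pathway lists. It also holds transketolase and transaldolase, pentose phosphate enzymes that make no NADPH themselves. Of 11 tested genes 3 had a positive and 8 a negative difference, with a median of -0.39, where 23.2% of all genes had a negative one. The groups did not overlap for 4 on the lower side and 1 on the higher, against 3.24% of all genes lower and 11.8% higher. Malic enzyme Me1 averaged 175 ± 48.6 TPM in the libraries titled Tumor and 694 ± 274 TPM in those titled WT (SD, n = 3 each), a log2 difference of -1.93. Transketolase (Tkt) averaged 465 ± 111 TPM in the libraries titled Tumor and 1275 ± 279.7 TPM in those titled WT, a difference of -1.46. Transaldolase (Taldo1) averaged 404 ± 75.4 TPM in the libraries titled Tumor and 649.8 ± 22.6 TPM in those titled WT, a difference of -0.70. The limma adjusted p of each of these genes was 0.737.

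Among regulators and other targets of Nrf2, 9 of 14 tested genes had a positive difference, against 76.8% of all genes. Their median was 0.12, below the all-gene median of 0.23, and 3 lay higher without overlap where 11.8% of all genes did. Bach1, a repressor at the antioxidant response element, averaged 13.2 ± 3.38 TPM in the libraries titled Tumor and 7.48 ± 0.247 TPM in those titled WT (SD, n = 3 each), a log2 difference of 0.72 (limma adjusted p = 0.737). Mafk, a small partner of Nrf2 and Bach1, averaged 17.5 ± 2.69 TPM in the libraries titled Tumor and 13.0 ± 1.84 TPM in those titled WT. Hmox1, haem oxygenase, averaged 93.0 ± 29.7 TPM in the libraries titled Tumor and 59.1 ± 17.9 TPM in those titled WT, with overlapping groups.

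The selenoprotein list held 9 factors that make or insert selenocysteine, 5 selenoproteins and Lrp8, a receptor for selenoprotein P. Differences were positive for 7 of the 9 factors, 5 of the 5 selenoproteins and Lrp8, against 76.8% of all genes, and the median of the 15 was 0.21, near that of all genes. The other 2 factors lay lower without overlap, as did 3.24% of all genes. Sephs2, which makes the selenium donor, averaged 39.7 ± 9.40 TPM in the libraries titled Tumor and 52.8 ± 4.10 TPM in those titled WT (SD, n = 3 each). Pstk, a kinase of the selenocysteine transfer RNA, averaged 24.0 ± 2.01 TPM in the libraries titled Tumor and 29.3 ± 2.49 TPM in those titled WT.

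Glutaredoxins and other users of glutathione had 3 positive and 8 negative differences, with a median of -0.20, and 2 of 11 lay lower without overlap, as did 3.24% of all genes. Glrx2, a glutaredoxin of mitochondria, averaged 54.0 ± 2.40 TPM in the libraries titled Tumor and 67.6 ± 1.18 TPM in those titled WT (SD, n = 3 each), and Ptges2, a prostaglandin synthase, 25.2 ± 5.86 TPM in the libraries titled Tumor and 34.8 ± 3.42 TPM in those titled WT. Genes that supply cysteine or export and break down glutathione had 10 of 16 positive differences, against 76.8% of all genes. Their median was 0.14, below the all-gene median of 0.23, and 0 lay without overlap, against 15% of all genes. Cth, which makes cysteine from cystathionine, stood at 5.12, 3.59 and 1.47 TPM in the libraries titled Tumor and at 12.3, 3.43 and 9.66 TPM in those titled WT, and overlapped through WT replicate 2.

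**Figure D5:**
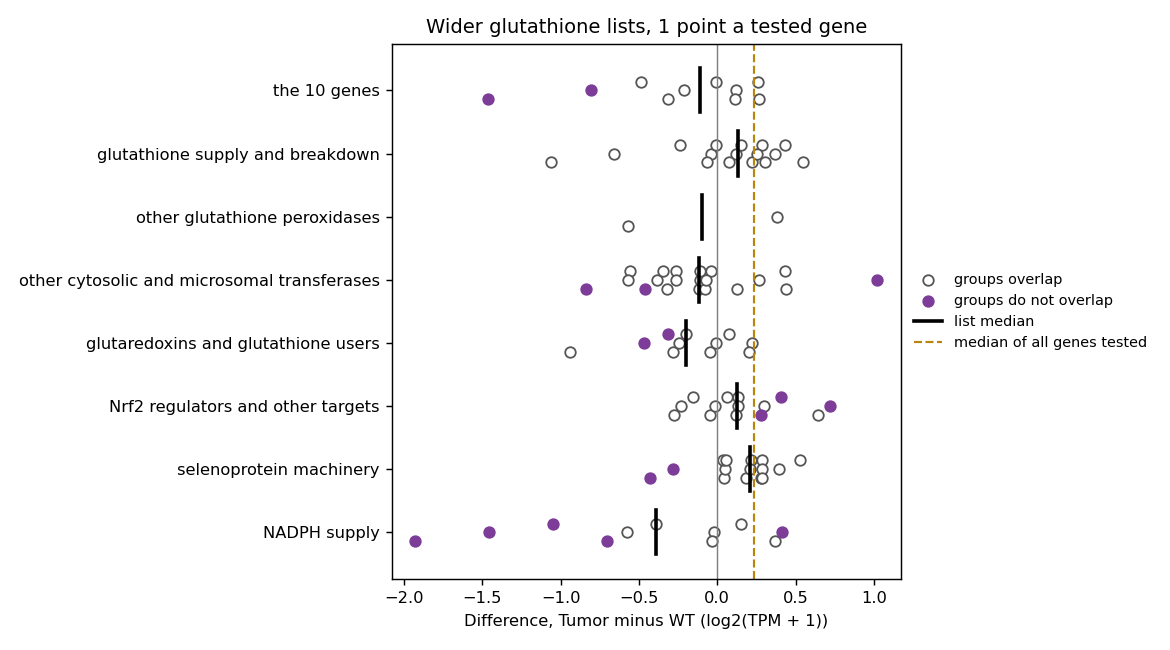
Log2 difference of each tested gene, libraries titled Tumor minus those titled WT, on the log2(TPM + 1) scale (horizontal axis), by list, with 1 point a gene. Filled points are genes whose groups do not overlap, black bars are list medians, and the dashed line is the median of all genes (0.23). The NADPH supply list reaches -1.93 (Me1), and Gsta3 and Gsta4 are the filled points among the 10 genes.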

How the data were processed

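Poly-A libraries were made from RNA of subcutaneous fat with an integrity number above 7, per the labels' protocols. The authors deposited TPM with gene symbols, under a name that says raw counts, although the values are not whole and each column sums to 1000000. GRCm38.p6 and DESeq2 are named, per the submitters' processing notes, with no version or role; no source used here names the aligner or annotation. Since TPM are shares, a gain of abundant transcripts lowers the others, and counting error cannot be given.

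Differences were fitted with limma 3.58.1 (R 4.3.3) on log2(TPM + 1) with mean-variance trend and robust moderation. The fit covered 14144 genes, those reaching 1 TPM in 3 or more libraries, with Benjamini-Hochberg adjustment over all of them at 0.05; 10 of 10 members passed the filter. Differences on this scale understate changes of low genes. Members, lists and tests were chosen with earlier results of these data known. Genes named were the members, Msra, up to 3 genes of lowest p per wider list, the first detected marker of each cell type list and the 3 nearest profiles per member (a part of these is printed), leaving out 26 date-like and 2 repeated names. Acss2, Gpx4-ps2, AC122253.3, Gstp1, Elovl3, Mzb1, Lyz2, Mrc1, Cd163 and Csf1r were named with their values known. The fit was checked on simulated data with independent noise and the same SD for every gene, the lower quartile of the observed SDs. Those data are quieter than these libraries and hold no shifts in cell content. The check therefore does not show how many true differences would pass here. Ratios and plots used Python 3.11.15, pandas 2.3.3, numpy 2.4.6, scipy 1.17.1 and matplotlib 3.10.9.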

Additional observations from a re-analysis of the deposited data

How the results depend on the processing

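No member passed under any of the 20 alternatives (pseudocounts, filters, scalings, limma settings, the replicate block, each library left out, marker lists as covariates, the lymphoid-rich libraries, and division by the adipocyte list). Over all genes the count was 0 except with the B and plasma cell covariate, where it was 1, Gm11594, named after its values were seen (listed at 0 in the libraries titled Tumor, 5.69 to 8.44 TPM in those titled WT). Under all 20, Gsta3 ran from -1.83 to -0.97 with an unadjusted p below 0.05 in 16, Gsta4 from -1.07 to -0.31 with 6, and Gclc and Gpx1 stayed positive. Gsta3 missed that threshold without WT replicate 1 or 3, with the muscle covariate and relative to the adipocyte list. Of all 14144 genes, 771 passed it in the main fit. Where Gsta4 passed, they were 651 (median-ratio) and 598 (upper-quartile factors), and 1511 without Tumor replicate 1. They were 1890 with the B and plasma cell covariate, 1550 with the adipocyte covariate and 1231 among the lymphoid-rich libraries. The members' median was 0.39 relative to the adipocyte list. Leaving out 1 library at a time gave -0.45 to 0.081 for that median, -0.53 to 0.049 for Gclm, -0.031 to 0.36 for Gss, -0.057 to 0.24 for Gsr, -0.36 to 0.49 for Gpx3, -0.60 to 0.085 for Gstm1, 0.077 to 0.48 for Gclc, 0.00060 to 0.48 for Gpx1, -0.67 to -0.27 for Gpx4, -1.83 to -1.03 for Gsta3 and -1.07 to -0.41 for Gsta4. Without Tumor replicate 3, Gclc, Gpx4 and Gsta4 were at 0.077, -0.27 and -0.41; without WT replicate 1, Gclc was at 0.48. Signs also turned with median-ratio factors (Gss -0.085, Gsr -0.10), upper-quartile factors (Gss -0.066, Gsr -0.077), the lymphoid-rich libraries (Gsr -0.021) and the B and plasma cell covariate (Gpx3 0.11). They turned with the adipocyte covariate (Gclm 0.039, Gpx3 0.38, Gstm1 0.020), the muscle covariate (Gclm 0.12, Gpx3 0.24) and division by the adipocyte list (Gclm 0.29, Gpx3 0.50, Gpx4 0.023, Gstm1 0.20). The cause was not tested.

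The labels do not say whether replicate numbers pair the libraries. Deviations of same-numbered libraries correlated at -0.76, 0.20 and -0.84. Those of Tumor replicate 1 and WT replicate 3, both poor in lymphoid RNA, correlated at 0.85. Because lymphoid RNA also differs between libraries, such correlations cannot show whether same-numbered libraries belong together. With the replicate block 0 genes passed, 183 had an unadjusted p below 0.05 against 771 without it, and the members' median was -0.11.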
